A study of Homo sapiens with 16 samples.

Results

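Small noncoding RNA genes were followed in a human breast adenocarcinoma cell line, MDA-MB-231, after 48 h with combinations of 3 drugs. Every gene name on the array that starts with SNORD, SNORA, SCARNA or RNU and a digit, or is RPPH1, RMRP, RN7SK or RN7SL1, was taken where its mean signal over all 16 arrays was above 22. This gave 89 of 324 matching names, out of 31329 named genes on the array. They comprised 41 of 174 SNORD names, 29 of 102 SNORA names, 4 of 24 SCARNA names, 12 of 20 RNU names, and RPPH1, RN7SK and RN7SL1. RMRP, the RNA of RNase MRP, had a mean signal of 7.069 (−9.8 to 19.3) and was not included. SNORD34 (mean signal 22.69) and SNORD15B (22.56) lay just inside the limit, and SNORD43 (21.46) and RNU105A (20.8) just outside it. The genes were thus chosen by name and by measured mean signal. The limit was set on the mean of treated and control arrays together, so a gene near it could enter through the groups in which it was high.

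The 8 groups held 2 arrays each and received entinostat (2.5 µM, a class I histone deacetylase inhibitor) with ATRA (1 µM, all-trans retinoic acid) and doxorubicin (0.2 µM, a topoisomerase II poison), each pair of these drugs, each drug alone, or the vehicle DMSO. All groups were the same line in the same medium, so the comparisons concern 1 cell line. The labels do not state that the 2 arrays of a group came from separate cultures, so the p-values measure the spread between arrays, which may be technical. On each array 11402 to 12748 named genes were detected at the authors' detection p under 0.05. Of the line's markers, VIM, CD44, AXL and MSN were detected on all 16 arrays, SPARC had signals of only −11.3 to 29.7, and ESR1 and PGR were detected on 0 arrays. EPCAM, listed as low in this line, was detected on all 16 arrays (131 to 269.7). CDKN1A, a cell cycle inhibitor, was higher than in DMSO with doxorubicin (log2 change 2.17) and with entinostat (2.01). DHRS3, a retinoid-responsive gene, was higher with ATRA (2.61).

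Small nucleolar RNAs guide the chemical modification of other RNAs. Box C/D RNAs (SNORD genes) guide ribose methylation and H/ACA RNAs (SNORA genes) guide pseudouridylation, mainly of ribosomal RNA, and SCARNA genes encode the related RNAs of Cajal bodies. Most human snoRNAs are cut from introns of host genes, whereas the spliceosomal U RNAs (RNU genes), RPPH1, RN7SK and RN7SL1 are transcribed from their own promoters by RNA polymerase II or III. These mature RNAs are short and mostly lack a poly(A) tail. The labels name a column RNA extraction and an amplification kit for the labelled cRNA, and such kits prime from poly(A) and recover short RNA poorly. A signal for one of these names can therefore come from a precursor, an extended transcript or the host gene as well as from the mature RNA, and which of these was measured was not tested. In bulk RNA, fewer cells carrying a transcript and less transcript per cell cannot be told apart.

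The change with doxorubicin was taken over the 8 arrays with the drug against the 8 without it, whatever else the cells received. By limma with Benjamini-Hochberg adjustment over 17399 genes, 34 of the 89 genes passed an adjusted p under 0.05, 16 higher and 18 lower. That is 38.2% of them, beside 41.4% of all genes tested, so the share is not a result about small RNA genes. Over all genes tested 19.8% were called higher and 21.6% lower. Of the SNORD genes, 11 were higher and 8 lower, with a median log2 change of 0.01. Of the SNORA genes, 2 were higher and 8 lower, with a median of −0.18, beside a median of 0 over all genes tested. Of the RNU genes, 2 were higher and 1 lower, with a median of −0.12. Among the 4 SCARNA genes 1 was higher, and among RPPH1, RN7SK and RN7SL1 1 was lower. The largest changes among the 89 genes were in 1 gene in each direction, RPPH1 (lower) and SNORD13 (higher).

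**Figure D1:**
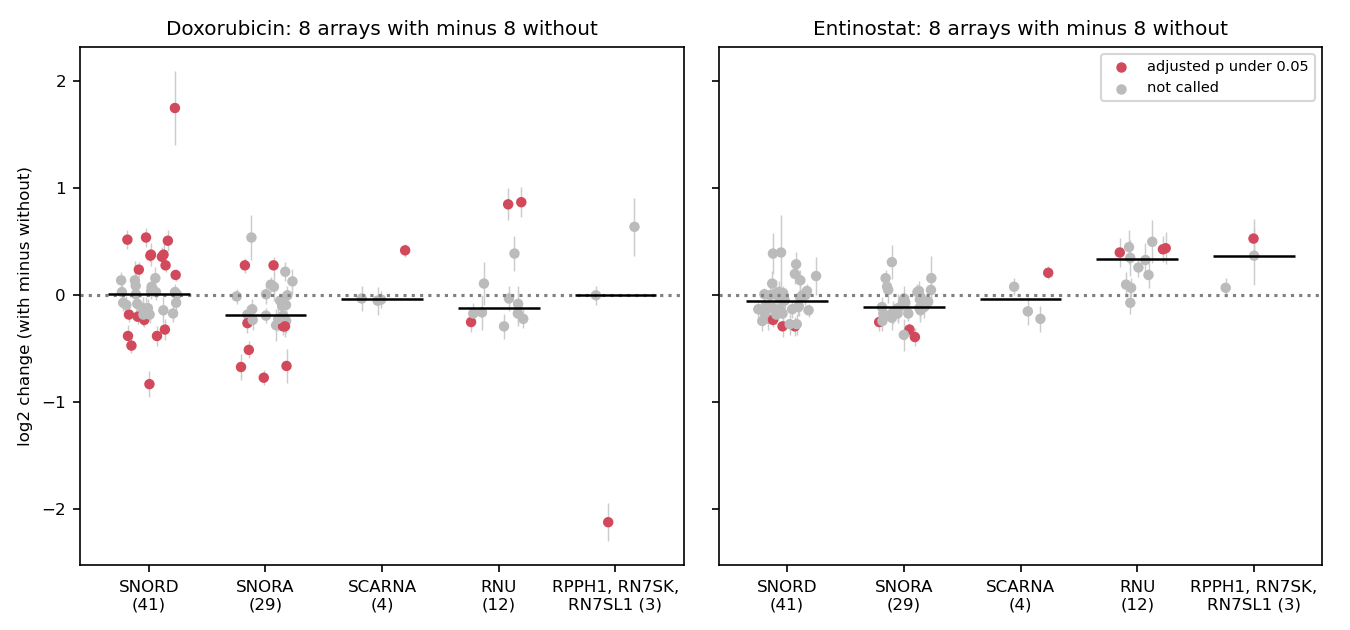
Log2 change of each of the 89 genes (point, bar ± SE) with doxorubicin (left panel) or entinostat (right panel), 8 arrays with the drug minus 8 without, by class, with the class median as a line and called genes in red. RPPH1 at −2.12 and SNORD13 at 1.75 lie apart from the other genes in the left panel, and most RNU genes lie above 0 in the right panel.

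Each treatment group set against DMSO, 2 arrays against 2, gave fewer calls. With doxorubicin alone 6 genes passed, all lower (6.74%, beside 13.8% of all genes, 6.53% higher and 7.24% lower). With entinostat and doxorubicin 16 passed, 5 higher and 11 lower (18%, beside 28.3% of all genes, 13.3% higher and 15.1% lower). With ATRA and doxorubicin 11 passed, 2 higher and 9 lower (12.4%, beside 15.1% of all genes, 7.44% higher and 7.71% lower). With all 3 drugs 18 passed, 8 higher and 10 lower (20.2%, beside 28.1% of all genes, 13.1% higher and 15% lower). In limma, 0 of the 89 genes passed with entinostat alone (beside 1.59% of all genes), ATRA alone (0.023%) or entinostat and ATRA (2.51%). In these 3 comparisons 16, 2 and 8 of them had an unadjusted limma p under 0.05. These are 18%, 2.25% and 8.99%, beside 12.4%, 2.76% and 15.1% of all genes tested. The 7 comparisons share the same 2 DMSO arrays. The counts with doxorubicin, alone or in combination, were lower without DMSO replicate 2. For doxorubicin alone the count was also lower without doxorubicin replicate 2. It was higher without doxorubicin replicate 1 or either array of entinostat and doxorubicin. The ATRA and doxorubicin count was lower without either of its own arrays or DMSO replicate 1. The share of all genes called without each array is not given here, so these shifts are not a result about small RNA genes.

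RPPH1 encodes the catalytic RNA of RNase P, which trims the leader from precursor tRNAs. Its signal was 102 and 28.5 with doxorubicin alone, 226.7 and 127.5 with entinostat and doxorubicin, 150.1 and 84.5 with ATRA and doxorubicin, and 239.5 and 85.4 with all 3 drugs. In groups without doxorubicin it was 1334 and 881.7 with entinostat, 695.1 and 525.7 with ATRA, 560.1 and 966.5 with entinostat and ATRA, and 629.2 and 626.8 with DMSO. All 8 arrays with doxorubicin lay below all 8 arrays without it. The mean log2 signal was 7.55 with doxorubicin and 9.66 without it, a change of −2.12 (SE 0.18, limma adjusted p = 4.6e-07). Against DMSO the log2 change of RPPH1 was −2.43 (SE 0.36, limma adjusted p = 0.000808) with doxorubicin alone, the lowest of the 17399 genes in that comparison (rank 1). It was −1.54 with entinostat and doxorubicin, −1.92 with ATRA and doxorubicin and −1.68 with all 3 drugs, each past the limma threshold. Without entinostat and doxorubicin replicate 2 the first of these 3 had an adjusted p of 0.0538.

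RPPH1 lies head to head with PARP2, a gene of poly(ADP-ribose) synthesis in DNA repair, and the pair is known to share one promoter region. PARP2 is not a small RNA gene and was looked at after the values of RPPH1 were seen. The sequence before and just after the start of PARP2 is printed because it lies on the side facing RPPH1, read on the PARP2 strand (RefSeq, GRCh38.p14, 250 bases before to 20 after the annotated start). The window has a fixed length, so it is not the exact stretch between these 2 genes. Its last 20 bases follow the PARP2 start, and its first bases may lie within RPPH1. Capitals mark 2 overlapping matches of TATAA or its complement TTATA, and 1 match of ATGCAAAT, the complement of the octamer ATTTGCAT, an element of small RNA gene promoters.
PARP2 (chr14:20343385-20343654, + strand): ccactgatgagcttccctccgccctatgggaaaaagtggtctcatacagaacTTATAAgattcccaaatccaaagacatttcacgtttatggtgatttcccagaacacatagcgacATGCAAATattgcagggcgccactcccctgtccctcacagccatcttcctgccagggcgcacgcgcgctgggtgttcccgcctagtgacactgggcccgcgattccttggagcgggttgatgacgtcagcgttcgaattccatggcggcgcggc
TATAA on either strand is present in 20.3% of 27305 promoters of the same length, and ATTTGCAT in 1.73%. CCAAT, searched on both strands, had 0 matches in this stretch and is present in 34.2% of promoters. These matches describe letters and not binding sites.

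PARP2 signals ran from 48.9 to 152 (median 86.45) on the 8 arrays with doxorubicin and from 187.8 to 347 (median 293.8) on the 8 without it, with no overlap. The change was −1.15 (SE 0.08, limma adjusted p = 1.09e-07). Against DMSO, PARP2 changed by −1.03 with doxorubicin alone, −1.63 with entinostat and doxorubicin, −1.03 with ATRA and doxorubicin, and −1.69 with all 3 drugs, each past the threshold. With entinostat the neighbours went opposite ways. Over the 8 arrays with entinostat against the 8 without it, PARP2 was lower (log2 change −0.51, SE 0.08, limma adjusted p = 0.000529) and RPPH1 higher (0.53, SE 0.18, limma adjusted p = 0.0437). RPPH1 signals overlapped in that comparison, 85.4 to 1334 (median 399.8) with entinostat and 28.5 to 695.1 (median 337.9) without it. The RPPH1 call with entinostat was lost when any of 10 of the 16 arrays was left out, with an adjusted p of up to 0.11.

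**Figure D2:**
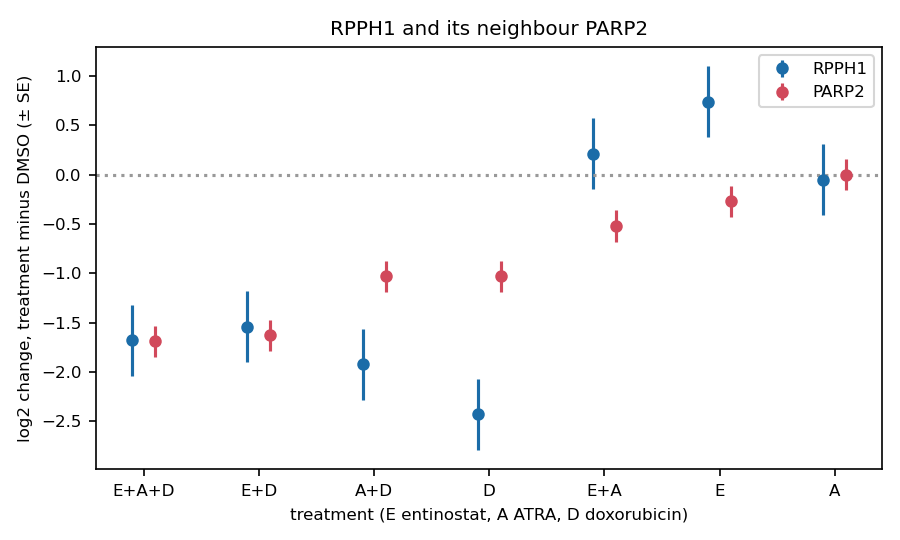
Log2 change of RPPH1 and PARP2 in each treatment minus DMSO (point, bar ± SE, 2 arrays a group). Both are below 0 in the 4 treatments with doxorubicin, and with entinostat alone RPPH1 is above 0 (0.74) and PARP2 below 0 (−0.27), neither past the threshold.

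Of the proteins of RNase P and RNase MRP, 2 of 9 tested were higher with doxorubicin (POP5 0.53, POP1 0.35) and 2 lower (RPP38 −0.25, RPP40 −0.23), close to the 19.8% higher and 21.6% lower over all genes tested. With entinostat 0 were higher and 4 lower, among them POP4 (−0.46) and RPP40 (−0.45), beside 11.1% higher and 12.4% lower over all genes tested. These values are log2 changes, 8 arrays with the drug minus 8 without, as are those of the other protein groups below, whose counts are to be read against the same shares.

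SNORD13 encodes U13, a box C/D RNA with its own promoter that is needed for an acetylation of the small ribosomal subunit RNA. Its signal was 464.9 and 370.7 with doxorubicin alone, 1322.9 and 371.2 with entinostat and doxorubicin, 617.8 and 368.3 with ATRA and doxorubicin, and 1092.7 and 339.3 with all 3 drugs. Without doxorubicin it was 254 and 44.4 with entinostat, 235.7 and 53.8 with ATRA, 346.4 and 41.1 with entinostat and ATRA, and 112.7 and 43.6 with DMSO. In each of the 8 groups replicate 1 was the higher array, and the replicate 1 array with entinostat and ATRA reached the lowest values with doxorubicin. The log2 change over the 8 and 8 arrays was 1.75 (SE 0.35, limma adjusted p = 0.000985), a fold of 3.35. Against DMSO it was 2.46 with entinostat and doxorubicin (limma adjusted p = 0.0169), and without replicate 1 of that group 1.63, with an adjusted p of up to 0.177 without that array or DMSO replicate 2. With all 3 drugs it was 2.27 (limma adjusted p = 0.0265), with an adjusted p of up to 0.239 without replicate 1 of that group or either DMSO array. TTI2, the nearest protein-coding gene, did not pass (log2 change 0 with doxorubicin, SE 0.06).

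**Figure D3:**
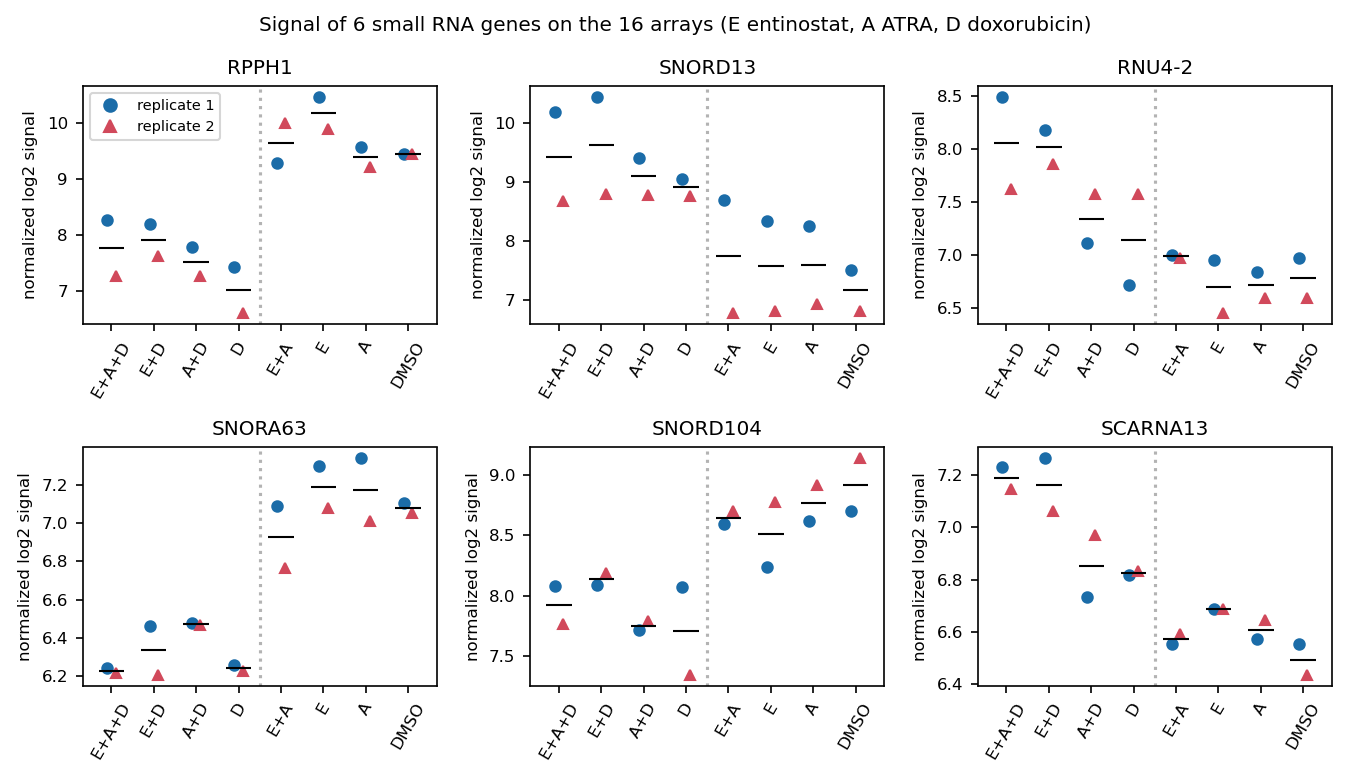
Normalized log2 signal of 6 genes on each of the 16 arrays (circles replicate 1, triangles replicate 2, lines the group means), with the 4 groups with doxorubicin left of the dotted line and DMSO at the far right. RPPH1, SNORA63 and SNORD104 are lower and SCARNA13 higher on every array with doxorubicin, while SNORD13 and RNU4-2 overlap between the sides.

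RNU4-1 and RNU4-2 encode copies of U4, the spliceosomal RNA that pairs with U6. Their sequences are nearly identical, so their signals may not be independent. The RNU4-2 signal was 36 and 120.4 with doxorubicin alone, 224.3 and 165.1 with entinostat and doxorubicin, 69.4 and 121.1 with ATRA and doxorubicin, and 292.2 and 129.3 with all 3 drugs. It was 55.3 and 18.9 with entinostat, 45.3 and 27.6 with ATRA, 60.1 and 57.1 with entinostat and ATRA, and 56.6 and 27.6 with DMSO. All arrays with doxorubicin lay above 60.1, the highest without it, except replicate 1 of doxorubicin alone. RNU4-2 was higher with doxorubicin by 0.85 (SE 0.15, limma adjusted p = 0.000362) and RNU4-1 by 0.87 (SE 0.14, limma adjusted p = 0.000136). With entinostat the changes were 0.44 (limma adjusted p = 0.0465) for RNU4-2 and 0.40 (limma adjusted p = 0.0484) for RNU4-1. These entinostat calls were lost without any of 10 arrays for RNU4-2 and 12 for RNU4-1. The RNU4-1 signal, 15.5 to 183.7 with doxorubicin, was −2 to 26.1 without it, so it passed the signal limit through its doxorubicin arrays. Against DMSO, where RNU4-1 was not above background, it was at least 2.45-fold higher with all 3 drugs and at least 2.03-fold higher with entinostat and doxorubicin. The second of these calls was lost without replicate 1 of that group or DMSO replicate 2 (adjusted p up to 0.0846).

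Both U4 genes adjoin SIRT4, a mitochondrial sirtuin gene whose annotated span holds RNU4-1. SIRT4 signals ran from 61 to 326.8 (median 135.2) with doxorubicin and from −4.6 to 61.8 (median 3.5) without it. SIRT4 was higher by 1.47 (SE 0.12, limma adjusted p = 3.41e-07), and with entinostat by 0.71 (SE 0.12, limma adjusted p = 0.000757). RNU4-1, RNU4-2 and SIRT4 moved the same way with both drugs, and whether they measured separate transcripts was not tested.

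The other U RNA genes changed less with doxorubicin. RNU6-1 and RNU6-15, named for U6, had signals of 1322.9 to 3002.2 and 1258.8 to 3214.8 over the 16 arrays, and the U1, U6 and U3 families have many near-identical copies, so a signal under one name is uncertain. RNU1-5, a U1 name that matches several genes, was lower (log2 change −0.25, limma adjusted p = 0.0422), a call lost without any of 9 arrays. RNU5A, a U5 gene, was called with all 3 drugs against DMSO (1.02, limma adjusted p = 0.0314). Its signals there were 202.3 and 29.9, against 7.3 and 16.5 with DMSO. Without the 202.3 array, replicate 1, the change was 0.29, and the adjusted p was up to 0.449 without that array or either DMSO array. RNU4ATAC, the U4 of the minor spliceosome, had 207.6 and 27 with all 3 drugs and 174.7 and 40.7 with entinostat and doxorubicin, against 33.4 and 31.2 with DMSO, and did not pass.

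RN7SK encodes the RNA that holds the elongation factor P-TEFb inactive. Its signal was 472.6 and 58 with all 3 drugs, 292.8 and 66.9 with entinostat and doxorubicin, 113.1 and 39.2 with ATRA and doxorubicin, and 109 and 57.1 with doxorubicin alone. It was 64.8 and 41.4 with DMSO and did not pass in any of the 11 comparisons. Replicate 1 was the higher array in all 8 groups. Of 7 tested genes of the 7SK particle and P-TEFb, 3 were higher with doxorubicin, MEPCE (0.62), HEXIM2 (0.52) and HEXIM1 (0.31), and 0 lower, beside 19.8% and 21.6% of all genes tested. With entinostat 0 were higher and 5 lower, among them MEPCE (−0.51), LARP7 (−0.43) and HEXIM2 (−0.27), beside 11.1% and 12.4% of all genes.

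RN7SL1, the RNA of the signal recognition particle, had signals of 7840.8 to 13988.6 and a log2 change of 0 with doxorubicin (limma adjusted p = 0.984). Its annotated span lies in that of RPS29, whose change was −0.05 (SE 0.06, limma adjusted p = 0.58). Of 8 genes for the particle's proteins and receptor, 2 were higher with doxorubicin, SRP54 (0.42) and SRP14 (0.25), and 5 lower, among them SRP72 (−0.79), SRP68 (−0.58) and SRP9 (−0.32), beside 19.8% higher and 21.6% lower over all genes tested.

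SNORA63 gave the lowest change among H/ACA genes with doxorubicin. Its signal was 8.3 and 6.5 with doxorubicin alone, 20.1 and 5.7 with entinostat and doxorubicin, 20.7 and 20 with ATRA and doxorubicin, and 7.5 and 6 with all 3 drugs. It was 89.2 and 65.9 with entinostat, 92.8 and 60.8 with ATRA, 68 and 40.5 with entinostat and ATRA, and 69.2 and 63.1 with DMSO. The 8 and 8 arrays did not overlap. The change was −0.77 (SE 0.07, limma adjusted p = 1.44e-06). Where the doxorubicin arrays were not above background the change is a bound, at least 1.78-fold lower with doxorubicin alone and at least 1.80-fold lower with all 3 drugs than with DMSO.

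SNORA57 had signals of 25.8 to 107.6 (median 42) with doxorubicin and 89 to 168.9 (median 128.4) without it. It was lower (log2 change −0.67, SE 0.12, limma adjusted p = 0.000311), and the ranges overlapped through replicate 1 of both groups with entinostat and doxorubicin. SNORA61 had 313.6 to 591.2 (median 446.6) with doxorubicin and 437.9 to 1048.7 (median 772.5) without it, a change of −0.66 (SE 0.16, limma adjusted p = 0.00358), and these ranges overlapped. SNORA76, also with overlap, had 20.5 to 84.9 (median 51.8) with doxorubicin and 70.6 to 143.2 (median 97.35) without it, a change of −0.51 (SE 0.08, limma adjusted p = 0.000101). The 2 higher SNORA genes were SNORA21 and SNORA7B (each 0.28). Of 7 tested array rows for genes of H/ACA proteins, 0 were higher and 5 lower (median −0.35, beside 0, and shares of 19.8% and 21.6%, over all genes tested), with DKC1, the pseudouridine synthase, at −0.82 and GAR1 at −0.53 and, under its older name NOLA1, at −0.57. With entinostat the DKC1 change was −0.44 and that of GAR1 −0.70.

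SNORD104, a box C/D gene, had signals of 200.6 and 92.8 with doxorubicin alone, 205.9 and 222.9 with entinostat and doxorubicin, 141.9 and 150.8 with ATRA and doxorubicin, and 203.2 and 151.7 with all 3 drugs. It was 233.4 and 369.7 with entinostat, 324.6 and 414.3 with ATRA, 316 and 347.2 with entinostat and ATRA, and 348.8 and 494.2 with DMSO. The 2 sides did not overlap, and SNORD104 was lower (log2 change −0.83, SE 0.12, limma adjusted p = 4.31e-05). SNORD36C was also lower (−0.47), with nearly separate signals of 29.1 to 50.7 (median 40.2) with doxorubicin and 48.6 to 106.9 (median 77.3) without it.

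The higher box C/D genes apart from SNORD13 changed by 0.54 or less. SNORD35A had signals of 28.2 to 90.1 (median 36.8) with doxorubicin and 3 to 21.1 (median 5.1) without it, with no overlap, a change of 0.54 (SE 0.09, limma adjusted p = 0.000206). Its mean signal without doxorubicin was 8.56, so it passed the signal limit through its doxorubicin arrays. SNORD35B, its relative in another ribosomal protein gene, had 135.9 to 289.6 (median 195.7) with doxorubicin and 71.7 to 170 (median 127.6) without it, a change of 0.52 (SE 0.09, limma adjusted p = 0.00024). SNORD16 had 179.8 to 366.9 (median 292) with doxorubicin and 131.9 to 236.6 (median 178.6) without it, a change of 0.51 (SE 0.10, limma adjusted p = 5e-04). The ranges of SNORD35B and SNORD16 overlapped. SNORD95 also did not overlap, with 30.8 to 59.7 with doxorubicin and 11.6 to 29.6 without it, a change of 0.37. Of 9 box C/D protein genes, 1 was higher, ZNHIT3 (0.48), and 4 lower, among them the assembly factor ZNHIT6 (−1.07) and the core protein NOP58 (−0.59), while the methyltransferase FBL had −0.03 and did not pass. Over all genes tested 19.8% were higher and 21.6% lower.

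SCARNA13, a Cajal body RNA gene, had signals of 44.1 and 45.2 with doxorubicin alone, 86.9 and 65.9 with entinostat and doxorubicin, 37.8 and 57.2 with ATRA and doxorubicin, and 82.9 and 74.2 with all 3 drugs. It was 34.7 and 34.9 with entinostat, 26.5 and 31 with ATRA, 25.5 and 28.3 with entinostat and ATRA, and 24.8 and 18 with DMSO. The sides did not overlap. SCARNA13 was higher by 0.42 with doxorubicin (SE 0.06, limma adjusted p = 6.32e-05) and by 0.21 with entinostat (SE 0.06, limma adjusted p = 0.0235). In all, 6 of the 89 genes did not overlap between arrays with and without doxorubicin (6.74%, beside 11.5% of all genes tested, 5.37% higher and 6.15% lower): SCARNA13, SNORD35A and SNORD95 higher, and RPPH1, SNORA63 and SNORD104 lower. The mean signal of 8 called genes was at or under the limit of 22 on one side, so they were among the 89 only through the other side, and their calls and non-overlap are a description. These were RNU4-1, SNORA21, SNORD35A and SNORD95, which entered through the arrays with doxorubicin, and SNORA63, SNORA73A, SNORD15B and SNORD76, which entered through those without it. With entinostat this held for 1 called gene, SNORD34, whose mean signal was 13.2 with entinostat and 32.2 without it.

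**Figure D4:**
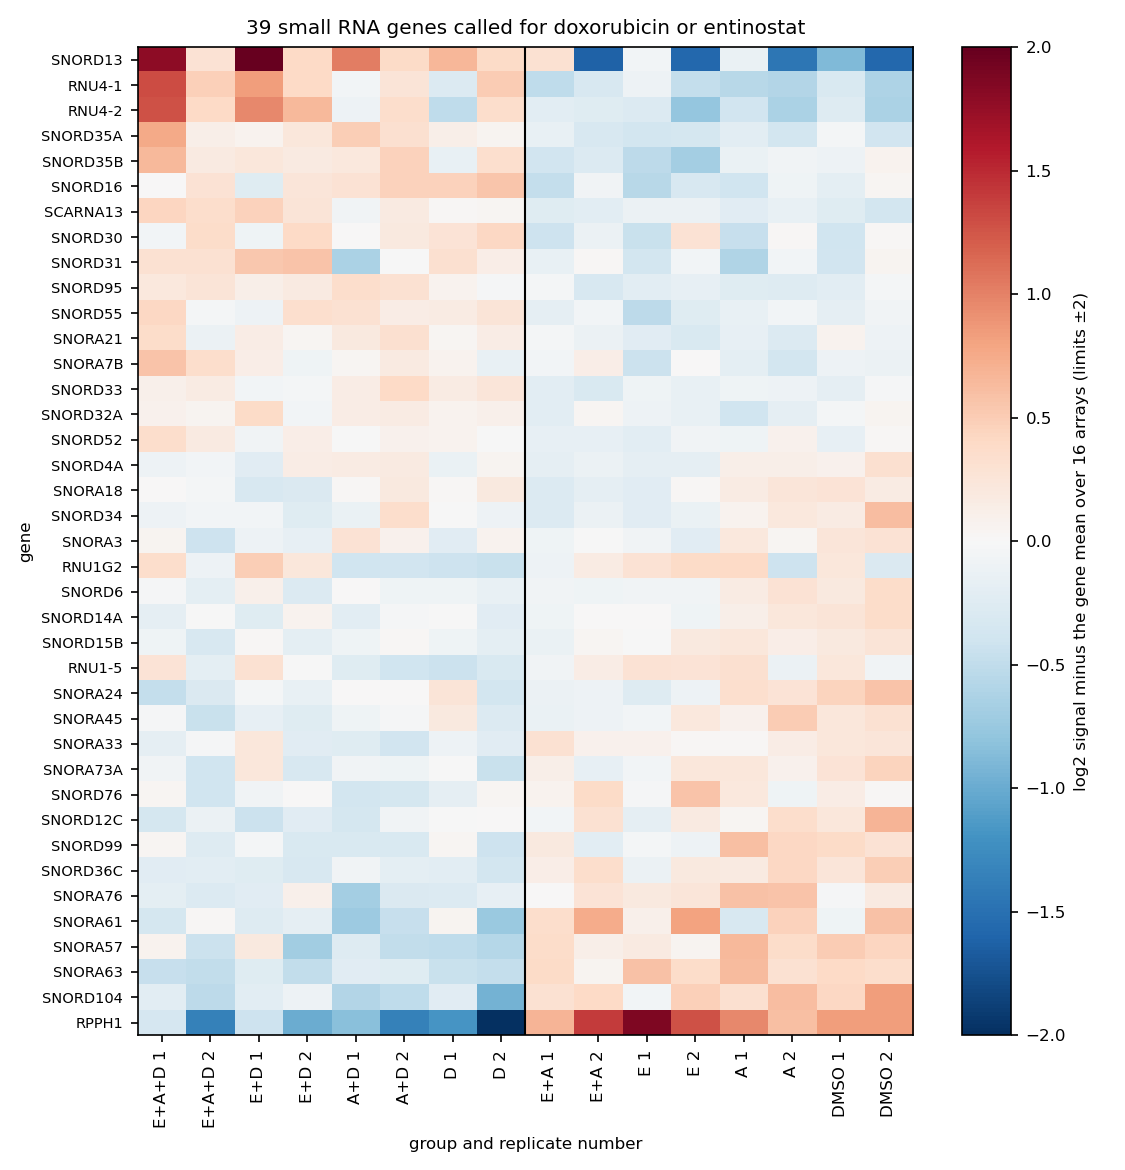
Log2 signal of the 39 genes called for doxorubicin or entinostat, minus each gene's mean over the 16 arrays, with genes in order of their doxorubicin change and the 8 arrays with doxorubicin left of the line (E entinostat, A ATRA, D doxorubicin, 1 and 2 the replicate numbers). SNORD13 and the RNU4 genes are highest on the replicate 1 arrays of the 2 groups with entinostat and doxorubicin, and RPPH1 is low on all 8 arrays with doxorubicin.

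With entinostat, 8 arrays against 8, 11 genes passed, 5 higher and 6 lower (12.4%, beside 23.4% of all genes tested, 11.1% higher and 12.4% lower). The higher ones were RPPH1, RNU4-1, RNU4-2, SCARNA13 and RNU1G2, a U1 gene. RNU1F1 matched the same RefSeq gene as RNU1G2 and was not called, so the 12 RNU names are not 12 separate genes. RNU1G2 signals were 71.7 to 143.5 (median 112.2) with entinostat and 41.5 to 129 (median 45.8) without it, a change of 0.43 (SE 0.12, limma adjusted p = 0.0179). Of the 12 RNU genes 11 had changes above 0 (median 0.34, beside −0.02 over all genes tested), and 3 of them passed. That median was 0.21 without replicate 1 of all 3 drugs, 0.14 without that array and entinostat and doxorubicin replicate 1, and 0.07 when normexp took its background from detection p-values. The lower genes were all snoRNA genes, with SNORA24 at −0.39 (SE 0.08, limma adjusted p = 0.00406), SNORA18 at −0.32 (SE 0.06, limma adjusted p = 0.00205), SNORD34 and SNORD16 at −0.29, SNORA3 at −0.25 and SNORD4A at −0.23. SNORA24 signals were 23.7 to 56.2 (median 48.2) with entinostat and 30.5 to 120.2 (median 84.5) without it. SNORA18 signals were 123.7 to 173.3 (median 137.8) with entinostat and 172.9 to 217.1 (median 199.5) without it. For 0 of the 89 genes did the 8 and 8 arrays not overlap, beside 2.4% of all genes tested. The count called was lowest without DMSO replicate 2 and highest without replicate 2 of all 3 drugs. It was also lower without replicate 1 of entinostat, of entinostat and ATRA, of any of the 3 combinations with doxorubicin, or replicate 2 of ATRA. The share of all genes called without each array is not given here, so these shifts are not a result about small RNA genes. SNORA24 and SNORA18 kept their calls without each single array, and each of the other 9 lost its call without at least 1 array.

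For 6 genes both drugs gave a call, where 41.4% of all genes tested were called with doxorubicin and 23.4% with entinostat. The share called with both is not given for all genes, so these 6 are a description and not a result about small RNA genes. RNU4-1, RNU4-2, SCARNA13 and SNORA24 changed the same way with both, and RPPH1 and SNORD16 changed opposite ways. For ATRA, 8 arrays against 8, limma called 0 of the 89 genes, beside 0.109% of all genes. Changes of the 89 genes ran from −0.20 to 0.17, and 0 had an unadjusted limma p under 0.05, beside 4.35% of all genes.

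The test of whether the entinostat change differed with and without doxorubicin called 0 of the 89 genes in limma (beside 1.86% of all genes). Of the 89, 11 had an unadjusted limma p under 0.05 (12.4%, beside 13.9% of all genes tested). The estimate was above 0 for 76 of the 89 (85.4%, beside 48.1% of all genes tested), with a median of 0.19, beside −0.01. It was above 0 for all 12 RNU genes (median 0.38). The genes share arrays, and the replicate 1 arrays with entinostat and doxorubicin, with and without ATRA, were high for RN7SK, SNORD13, RNU4-1, RNU4-2 and RNU4ATAC. Without replicate 1 of all 3 drugs the median was 0.11, with 62 genes above 0 (69.7%) and 10 of the RNU genes (median 0.24), and without entinostat and doxorubicin replicate 1 it was 0.14, with 68 above 0 (76.4%) and 10 of the RNU genes. With both of these arrays left out the median was 0.07, with 56 genes above 0 (62.9%, beside 49.1% of all genes) and 7 of the 12 RNU genes (median 0.07). When normexp took its background from detection p-values, the medians were 0.03 over the 89 genes and 0.09 over the RNU genes, with 76 and 12 above 0.

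Replicate number went with the level of several genes. In 16 of the 89 genes (18%, beside 6.24% of all genes tested) one replicate was the higher in all 8 groups, replicate 1 in 8 genes and replicate 2 in the other 8. RNU genes had a median difference, replicate 1 minus replicate 2, of 0.22 on the log2 scale, and RN7SK one of 0.77.

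Of the 88 genes with 1 match in RefSeq's gene table, 73 lie within the span of another gene, 54 of them in a protein-coding gene and 19 in a noncoding one, over 50 hosts. Here a host is the gene whose span holds the small RNA gene, on either strand. It need not be the transcript from which the RNA is cut. For the 8 genes within more than 1 other gene, a protein-coding gene was taken first, then the longest. A tested array row was present for the hosts of 68 genes. These were 45 distinct hosts, so the call of a host is counted once for each gene it holds. With doxorubicin, 3 genes rose with a host that rose (SNORD30, SNORD31 and RNU4-1) and 7 fell with a host that fell. RNU4-1, RNU4ATAC and RN7SL1 are among the 68, although RNAs of their classes have their own promoters. In 11 cases the small RNA gene was higher and the host not called, in 7 it was lower and the host not called, and in 0 were the calls opposite. Hosts near background are counted as not called, among them GAS5 and RPL32P3 (median signals of 13.7 and 11.05 with doxorubicin). Of the genes that were not called, 7 had a host that was higher and 14 a host that was lower. The 14 include SNORA18, SNORA25, SNORA32 and SNORA8, all held by TAF1D. These counts are to be read beside 19.8% higher and 21.6% lower over all genes tested.

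SNORA63 lies in EIF4A2, a translation initiation helicase gene. EIF4A2 signals were 955.7 to 1704.6 (median 1100) with doxorubicin and 4587.3 to 7872.6 (median 5263) without it, a change of −2.13 (SE 0.13, limma adjusted p = 3.16e-08). SNORA61 and SNORD99 (−0.38) lie in SNHG12 (−0.38), SNORA57 in LBHD1 (−0.57) and SNORA73A (−0.29) in RCC1 (−1), and each small RNA gene was called lower with its host. SNORA73A also lies within SNHG3 and SNORA57 within CSKMT, which were not the hosts used. SNORD30 and SNORD31 (each 0.38) lie in SNHG1 (0.30), all called higher, while SNORD22 (0.08) and SNORD25 (0.14) of the same host did not pass. On the log2 scale used, SNORA14B was the gene whose change lay furthest above its host's, at 0.22 and not called. Its host TOMM20, a mitochondrial import receptor gene, was lower (−1.41, SE 0.09, limma adjusted p = 4.03e-08). The offset of the background correction understates changes of dim genes. A smaller change in a dim small RNA gene than in a brighter host is therefore not a result.

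In hosts with several small RNA genes the values within a host differed. RPL13A, a ribosomal protein gene, had a change of 0.13 and was not called, while SNORD35A (0.54), SNORD33 (0.28) and SNORD32A (0.24) in it were called higher and SNORD34 (−0.08) was not called. TAF1D, with −0.40 and called lower, holds SNORD6 (−0.18, called lower) and SNORA25, SNORA32, SNORA8 and SNORA18 (−0.28 to −0.05, not called). GAS5 (−0.09, not called) holds SNORD76 (−0.32, called lower), SNORD74 (0.03) and SNORD80 (0.16). NOP56 (0.00) and its 3 genes SNORD110, SNORD56 and SNORD57 were not called.

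**Figure D5:**
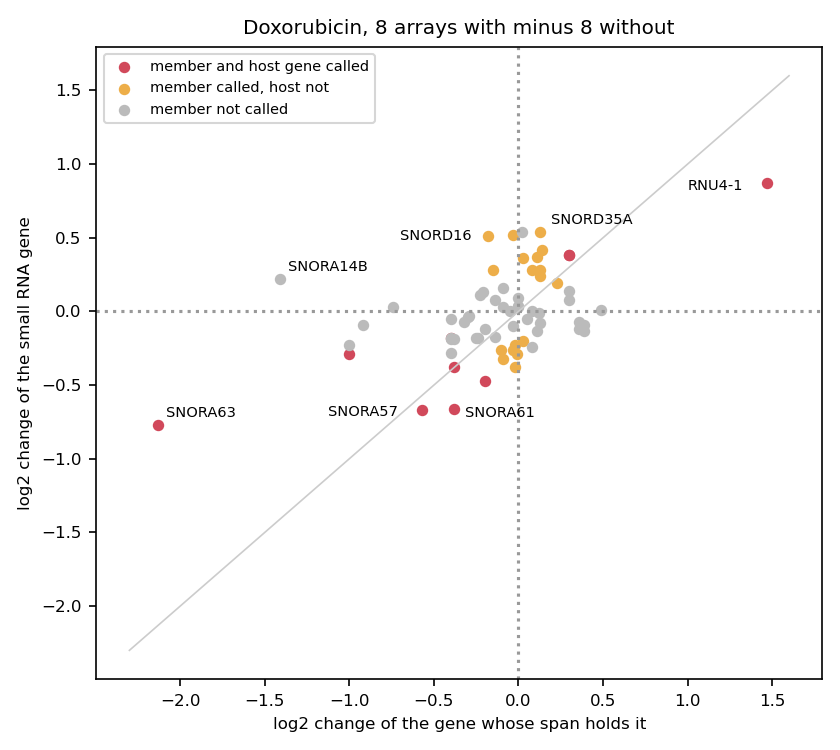
Log2 change with doxorubicin of 68 small RNA genes (vertical axis) against that of the gene whose span holds each (horizontal axis), 8 arrays with the drug minus 8 without, with the line of equal change. On this log2 scale SNORA63, which reached background with doxorubicin, and RNU4-1 had smaller changes than EIF4A2 and SIRT4. The offset of the background correction understates changes of dim genes, so distance from the line does not show which gene moved less. SNORD16 and SNORD35A were called while their hosts RPL4 and RPL13A were not.

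Many snoRNA host genes are known to start transcription within a run of pyrimidines, the feature of the terminal oligopyrimidine genes. The starts of the 6 hosts that hold 3 or more of the genes, and of EIF4A2, are printed to show it (RefSeq, GRCh38.p14, 80 bases before to 20 after the annotated start). Capitals mark the longest run of C and T within 5 bases of that start.
RPL13A (chr19:49487528-49487627, + strand): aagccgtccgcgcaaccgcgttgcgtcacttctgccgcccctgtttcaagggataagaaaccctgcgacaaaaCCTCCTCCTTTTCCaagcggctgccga
SNHG1 (chr11:62855866-62855965, - strand): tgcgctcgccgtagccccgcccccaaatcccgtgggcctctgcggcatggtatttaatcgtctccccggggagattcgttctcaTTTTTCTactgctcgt
SNHG12 (chr1:28581854-28581953, - strand): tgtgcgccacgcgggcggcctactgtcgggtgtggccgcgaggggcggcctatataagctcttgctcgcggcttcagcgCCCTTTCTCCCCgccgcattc
TAF1D (chr11:93741476-93741575, - strand): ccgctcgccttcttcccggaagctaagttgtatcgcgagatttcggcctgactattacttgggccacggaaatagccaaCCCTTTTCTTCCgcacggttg
EIF4A2 (chr3:186783497-186783596, + strand): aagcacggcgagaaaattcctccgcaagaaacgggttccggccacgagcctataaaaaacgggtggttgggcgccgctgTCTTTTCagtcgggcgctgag
GAS5 (chr1:173869026-173869125, - strand): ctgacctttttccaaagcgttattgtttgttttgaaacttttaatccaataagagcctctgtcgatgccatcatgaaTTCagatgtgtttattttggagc
NOP56 (chr20:2652552-2652651, + strand): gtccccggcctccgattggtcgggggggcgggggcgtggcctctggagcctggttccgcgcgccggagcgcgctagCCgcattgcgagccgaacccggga
RPL13A has a run of 14, SNHG12 and TAF1D of 12, SNHG1 and EIF4A2 of 7, GAS5 of 3 and NOP56 of 2. A run of 7 or more was found at 25 of the 43 host starts present in the table (58.1%), beside 15.1% of all 27305. Many of the hosts are ribosomal protein genes, among them RPL3, RPL4, RPS2 and RPSA, and the other hosts were not counted apart. Of the printed hosts with such a run, RPL13A was not called with doxorubicin, SNHG1 was called higher, and SNHG12, TAF1D and EIF4A2 were called lower.

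Genes that make or trim these RNAs were counted from lists, to be read against 19.8% higher and 21.6% lower with doxorubicin, and 11.1% and 12.4% with entinostat, over all genes tested. With doxorubicin, of 19 nuclear exosome and trimming genes, 1 was higher (EXOSC1 0.18) and 13 lower (median −0.39, beside 0 over all genes tested), led by PARN (−0.89), EXOSC8 (−0.82) and EXOSC9 (−0.80). With entinostat 0 of them were higher and 13 lower, among them TOE1 (−0.79) and EXOSC8 (−0.67). With doxorubicin, of 20 genes of RNA polymerase III and its factors, 4 were higher, among them POLR3GL (0.87), GTF3C5 (0.86) and the repressor MAF1 (0.76), and 7 lower, among them POLR3B (−1.10), GTF3C3 (−0.98) and GTF3C2 (−0.70). Of 19 genes for snRNA transcription and the Integrator complex, which cuts the ends of U RNAs, 1 was higher (SNAPC2 1.12) and 8 lower, among them INTS2 (−0.84), SNAPC1 (−0.52) and SNAPC5 (−0.48). Of 16 Sm and assembly genes, 3 were higher and 9 lower, among them SIP1 (−1.24), SNRPD1 (−0.96) and GEMIN6 (−0.88). With entinostat, 2 of the 20 RNA polymerase III genes were higher and 9 lower. Of the 19 snRNA transcription and Integrator genes 2 were higher and 5 lower, and of the 16 Sm and assembly genes 1 was higher and 6 lower. With ATRA 0 genes of these lists passed in limma.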

How the data were processed

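Biotin-labelled cRNA from 16 samples was read on an Illumina BeadChip. The authors deposited a non-normalized intensity per gene and array with a detection p-value, and a processed log2 table whose background correction and normalization are not given in the sources used here; limma is named per the submitters' processing notes. The deposited intensities fall below 0 in 28.1% to 28.9% of values per array, so background had been subtracted. Here, with limma 3.58.1 in R 4.3.3, they were corrected by normexp (offset 50), quantile normalized and put on a log2 scale, so changes of dim genes are understated. The fit held 8 group means over all 16 arrays (8 residual degrees of freedom), with 11 contrasts and Benjamini-Hochberg adjustment over 17399 genes, those with detection p under 0.05 on at least 2 arrays or a mean signal above 22. Left out were 92 spike-in, 3270 unnamed cluster and 4 nameless rows. Changes were called at an adjusted p under 0.05.

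A gene was taken as not above background in a group where each array had a detection p of 0.05 or more and a signal under 22.5, 3 times the noise SD estimated from values below 0. The number of arrays limits the precision. Names were matched to RefSeq: 78 as current symbols, 10 as single older symbols and 1 to several genes. Hosts were found by position alone, since the members' strand was not used. The genes and lists were chosen with earlier results of these data known. The text names RPPH1, RN7SK and RN7SL1, up to 6 called genes in each direction in each average drug change and up to 4 against DMSO, their hosts, genes next to the signal limit and up to 3 called genes in each direction per list; PARP2, SIRT4, TTI2, RNU4ATAC, SNORA14B, FBL, the motifs and the other genes were chosen after their values were seen. The alternatives were another background correction, offset and filter, the authors' table, the replicate block, only the 4 arrays of a comparison, and each array left out. The fit was tested on simulated data.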

Additional observations from a re-analysis of the deposited data

How the results depend on the processing

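The count of genes called was within 1.5 times that reported in each comparison with the authors' log2 table, an offset of 16, the detection filter alone and only the 4 arrays of a comparison. With normexp from the detection p-values it was 10 for entinostat and doxorubicin, 6 for ATRA and doxorubicin and 5 for the entinostat average, and with no filter the last was 7. With the replicate number as a block it was 1 for entinostat, 15 for doxorubicin, 3 for entinostat and ATRA, 19 for ATRA and doxorubicin, 28 for all 3 drugs, 23 for the entinostat average and 1 for the interaction; differences between same-numbered arrays correlated at 0.0185 to 0.424 between groups, so the numbers are not shown to pair the arrays. With both replicate 1 arrays of entinostat with doxorubicin left out, an alternative chosen after seeing the data, it was 10 for doxorubicin alone and 7 for the entinostat average. Leaving out 1 array at a time gave 0 to 1 for entinostat, 0 to 0 for ATRA, 3 to 11 for doxorubicin, 0 to 1 for entinostat and ATRA, 5 to 18 for entinostat and doxorubicin, 2 to 13 for ATRA and doxorubicin, 6 to 21 for all 3 drugs, 29 to 38 for the doxorubicin average, 3 to 18 for the entinostat average, 0 to 0 for ATRA's average and 0 to 1 for the interaction. The doxorubicin count was lowest without DMSO replicate 2 or doxorubicin replicate 2 and highest without doxorubicin replicate 1. The counts for the 3 combinations with doxorubicin and for the entinostat average were lowest without DMSO replicate 2. Of the 67 named calls none changed direction in any of these alternatives, and 163 of the 1072 repeats with 1 array left out lost the call. Of the 67, 23 lost the call with the background taken from detection p-values and 20 with both replicate 1 arrays of entinostat with doxorubicin left out. The share of all genes called in each alternative is not given beside these counts, so their shifts are not a result about small RNA genes. The cause was not tested.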
